A study of Mus musculus with 4 samples.

Results

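The olfactory receptor gene clusters described here are 2 intervals of the mouse genome build mm8, chr2:85200001-89900000 and chr9:37800001-39900000. Every 5 kb bin inside them that held a read with a single genome location in any library was taken, which gave 1323 bins of the 1360 possible and of 494868 such bins in the whole genome. The chromosome 2 cluster held 912 bins and the chromosome 9 cluster 411. The rule used position and the presence of a read, and no level of a mark. The intervals themselves were chosen with earlier results of these data known. Gene positions on mm8 were not used here, so the receptor content of the intervals was not checked on that build.

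Odorant receptor genes form the largest gene family of the mouse and stand in long tandem arrays, mixed with pseudogenes. Each olfactory sensory neuron expresses a single receptor allele, and most of the genes are silent in most other tissues. Their expression in the fibroblasts used here was not measured. In the olfactory epithelium the silent receptor arrays are packed in heterochromatin that carries methylation of lysine 9 of histone H3 and of lysine 20 of histone H4.

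Histone H3 methylation was mapped by chromatin immunoprecipitation with sequencing in fibroblasts, with 1 library in each of 4 groups. H3K9me3, a mark of heterochromatin, was mapped in secondary MEF and in mouse embryonic fibroblasts (MEF), with the same antibody lot. H3K27me3, the mark of Polycomb repressive complex 2, and H3K4me3, the mark of active and poised promoters, were mapped in MEF. The secondary MEF were grown from chimeric embryos at 13.5 dpc, made by injecting BDF2 blastocysts with induced pluripotent stem cells that carry inducible Oct4, Klf4 and Sox2 and a selectable cassette at Oct4. Puromycin at 2 µg/ml, given for 48 h, selected the fibroblasts that descend from these cells. The culture media also differed, with cosmic calf serum for secondary MEF and FBS for MEF. Neither strain nor age of the MEF is given in the labels, nor whether the factors had been induced in the secondary MEF. The 3 MEF libraries shared a flow cell and the secondary MEF library was on another, so cell source, medium and flow cell cannot be told apart.

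The secondary MEF H3K9me3 library had 7985901 reads with a single location, the MEF H3K9me3 library 8912337, the H3K27me3 library 9782554 and the H3K4me3 library 12244567. A level is the number of reads in a bin over the library's own mean per bin, which was 16.1, 18.0, 19.8 and 24.7 reads in the same order. Each group is a single library, so differences have no replicate check and were not tested. Intervals are at the 95% level and cover counting error only.

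The arrays can be shown by their RefSeq genes on another build, GRCm38.p6, where the largest run of receptor genes on chromosome 2, from Olfr987 to Olfr1274, held 293 of the 377 receptor genes and pseudogenes of that chromosome. Of these 222 were coding genes and 71 pseudogenes, over 5.07 Mb. The largest run on chromosome 9, from Olfr160 to Olfr986, held 127 of 179, with 95 coding genes and 31 pseudogenes, and 1 gene of another type, over 2.48 Mb. Other coding genes were few, namely Fads2b, Pramel7 and Pramel6 in the first run and Vwa5a, AW551984 and Tmem225 in the second. None of these genes was placed on the mm8 bins.

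Receptor promoters in these runs, as annotated in RefSeq, were poor in CG, the dinucleotide whose dense islands carry H3K4me3 at most promoters. Whether transcription begins at the annotated starts was not checked. In the 250 bases before the start, the 265 receptor genes with a RefSeq promoter had a median of 1 CG and 32.0% GC, and 121 of them (45.7%) had no CG at all. The 26081 other genes had a median of 6 CG and 52.8% GC, and 6.96% had none. No receptor promoter held 10 CG or more, against 39.6% of the other genes. The following 2, shown because their CG count and GC content are the medians of their runs, lie at chr2:87545543-87545792 on the minus strand and chr9:38448542-38448791 on the plus strand of GRCm38.p6. They are written 5′ to 3′ with each CG in capitals.
Olfr1128: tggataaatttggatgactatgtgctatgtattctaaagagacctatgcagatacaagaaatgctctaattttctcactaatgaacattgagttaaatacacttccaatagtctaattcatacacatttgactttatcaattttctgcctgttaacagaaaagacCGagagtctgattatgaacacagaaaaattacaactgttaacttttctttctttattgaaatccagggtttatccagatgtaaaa
Olfr902: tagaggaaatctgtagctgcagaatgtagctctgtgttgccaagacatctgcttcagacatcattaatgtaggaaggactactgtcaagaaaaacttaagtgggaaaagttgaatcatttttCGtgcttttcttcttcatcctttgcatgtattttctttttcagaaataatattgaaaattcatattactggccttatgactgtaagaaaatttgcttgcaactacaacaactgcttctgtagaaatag

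All 4 libraries were low in the clusters, and relative to its own library mean H3K4me3 was the lowest, an order that depends on the reference and was turned for H3K4me3 and H3K27me3 against bins called in no library (0.268 and 0.257). Secondary MEF H3K9me3 had 8459 reads there, or 0.396-fold the library mean (0.388 to 0.405). MEF H3K9me3 had 6656 reads, or 0.279-fold (0.273 to 0.286). MEF H3K27me3 had 4134 reads, or 0.158-fold (0.153 to 0.163), and MEF H3K4me3 had 3043 reads, or 0.0930-fold (0.0897 to 0.0963). The order of the 4 libraries was the same in both clusters, and the intervals of neighbours in that order did not overlap.

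The deficit lay in most bins and not in a few. At or under 0.5-fold stood 995 of the 1323 bins (75.2%) in secondary MEF H3K9me3, against 32.4% of all bins of the genome. For MEF H3K9me3 the count was 1155 (87.3%, against 33.6%), for H3K27me3 1283 (97.0%, against 40.0%) and for H3K4me3 1318 (99.6%, against 65.7%). In other autosomal bins weighted to the clusters' total reads, these shares were 83.3%, 88.9%, 93.4% and 99.2% in the same order of libraries. Low bins were thus about as common at like total reads. The clusters had a smaller share of them for both H3K9me3 libraries and a larger share for H3K27me3. In 931 bins (70.4%) all 4 libraries were at or under that level, against 15.8% of the bins within 2 Mb of the clusters and 22.9% of the genome. Above 1-fold stood 43, 11, 2 and 3 bins in the same order of libraries, where 39.4%, 40.3%, 34.1% and 14.9% of all bins did.

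Of all the cluster bins a single one was called, for H3K4me3. To be called, a bin had to reach 2-fold the library mean and a one-sided Poisson value under 0.001 after Benjamini-Hochberg adjustment over all bins. In the genome 6.27% of bins were called for H3K4me3. Secondary MEF H3K9me3, with 9.32% of bins called in the genome, MEF H3K9me3, with 10.3%, and H3K27me3, with 11.3%, had 0 called bins in the clusters. Calls were also rare in other autosomal bins weighted to the clusters' total reads. There 0.0709% of bins were called for secondary MEF H3K9me3, 0.0902% for MEF H3K9me3, 0.0920% for H3K27me3 and 0.0315% for H3K4me3. The near absence of calls was thus shared by bins equally poor in reads. Beside the clusters, 453 of the 1543 bins (29.4%) were called in at least 1 library, against 20.4% of the genome. Cluster bins of at least 5-fold in every library numbered 0, which allows a share of up to 0.227%. In the genome 81 bins (0.0164%) were of that kind, so the clusters could not be told from the genome in this.

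**Figure D1:**
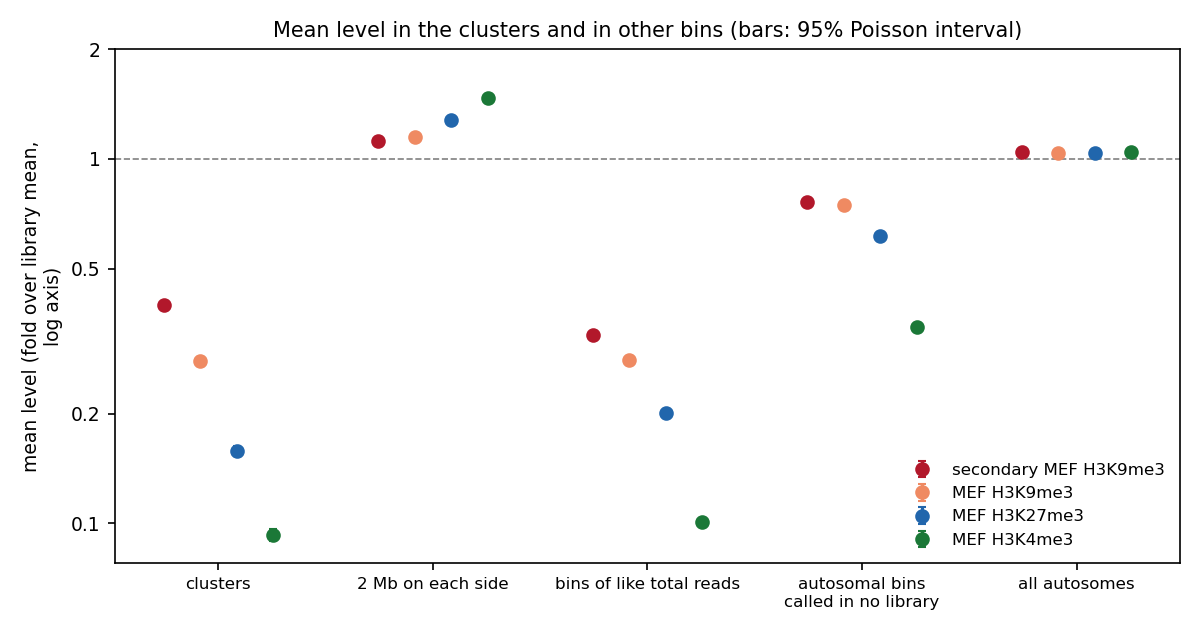
Mean fold over the library mean, on a log axis, in the clusters, the 2 Mb on each side, other autosomal bins of like total reads, autosomal bins called in no library and all autosomes, for the 4 libraries, with 95% Poisson intervals except for the bins of like total reads. The clusters stand between 0.0930 and 0.396-fold, the flanks between 1.12 and 1.47-fold, and the bins of like total reads between 0.101 and 0.329-fold.

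The flanks, 2 Mb on each side of each cluster, stood above the library mean when pooled, at 1.12-fold, 1.15-fold, 1.28-fold and 1.47-fold in the same order. Single sides ranged widely, and not all were above the mean. The lower side of chromosome 9 was at 0.823-fold, 0.859-fold, 1.12-fold and 0.878-fold, and the lower side of chromosome 2 at 0.939-fold, 0.929-fold, 1.01-fold and 1.48-fold. Both upper sides were above the mean in all 4 libraries, between 1.22-fold and 2.23-fold. The clusters over the flanks gave 0.355 (0.346 to 0.363) for secondary MEF H3K9me3 and 0.244 (0.237 to 0.250) for MEF H3K9me3. For H3K27me3 the ratio was 0.124 (0.120 to 0.128) and for H3K4me3 0.0632 (0.0609 to 0.0656). A library mean is raised by the reads in called bins, which held 25.9%, 27.5%, 40.9% and 61.6% of the reads. Over the 1090 flank bins called in no library the ratios were 0.489, 0.342, 0.222 and 0.213, so H3K27me3 and H3K4me3 were then nearly alike. Over all autosomal bins called in no library, a reference chosen after seeing the data, the clusters stood at 0.521, 0.374, 0.257 and 0.268, which puts H3K4me3 just above H3K27me3.

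Other autosomal bins with the same number of reads in all 4 libraries together were low as well. The median cluster bin held 15 reads in total, with quartiles of 9 and 22 and a highest of 173, against a median of 55 in autosomal bins and of 74 in the flanks. In 313203 other autosomal bins, weighted to the clusters' total reads, the levels were 0.329-fold, 0.282-fold, 0.201-fold and 0.101-fold. The clusters over these bins gave 1.21 (1.18 to 1.23) for secondary MEF H3K9me3, 0.992 (0.968 to 1.02) for MEF H3K9me3, 0.786 (0.762 to 0.810) for H3K27me3 and 0.919 (0.887 to 0.952) for H3K4me3. At equal total reads the pooled clusters thus held more secondary MEF H3K9me3 reads and fewer H3K27me3 and H3K4me3 reads. The interval for MEF H3K9me3 included 1. Matched instead on the reads of the 3 other libraries, MEF H3K9me3 was below the like bins, at 0.885. These 4 ratios are tied to each other, since a library that is high at a fixed total leaves fewer reads to the rest.

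Because neither an input library nor a map of uniquely alignable sequence was used here, how much of the low level is missing sequence and how much is a lack of each mark was not tested. Bins with no read in a library numbered 39 (2.95%) for secondary MEF H3K9me3, 83 (6.27%) for MEF H3K9me3, 177 (13.4%) for H3K27me3 and 245 (18.5%) for H3K4me3. In the bins of like total reads these shares were 4.60%, 5.64%, 10.9% and 18.9%. Empty bins were thus fewer for secondary MEF H3K9me3 and more frequent for H3K27me3 than at like totals, while the other pairs lay closer together.

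The order of the libraries held along nearly the whole length of both clusters. Cut into 100 kb windows, 67 of 68 (98.5%) had secondary MEF H3K9me3 highest, then MEF H3K9me3, H3K27me3 and H3K4me3. The exception was the window of chromosome 9 from 38400001, which holds the single called bin and where H3K4me3 was the highest. Of 23443 other autosomal windows 7700 (32.8%) had this order, and of the 6464 with total reads in the clusters' range 4795 (74.2%) did. The order is therefore common in windows with few reads. Window levels ran between 0.228-fold and 0.669-fold for secondary MEF H3K9me3 (median 0.390), and between 0.0818-fold and 0.538-fold for MEF H3K9me3 (median 0.267). They ran between 0.0506-fold and 0.453-fold for H3K27me3 (median 0.140) and between 0.0255-fold and 0.451-fold for H3K4me3 (median 0.0830). No window reached the library mean in any library.

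**Figure D2:**
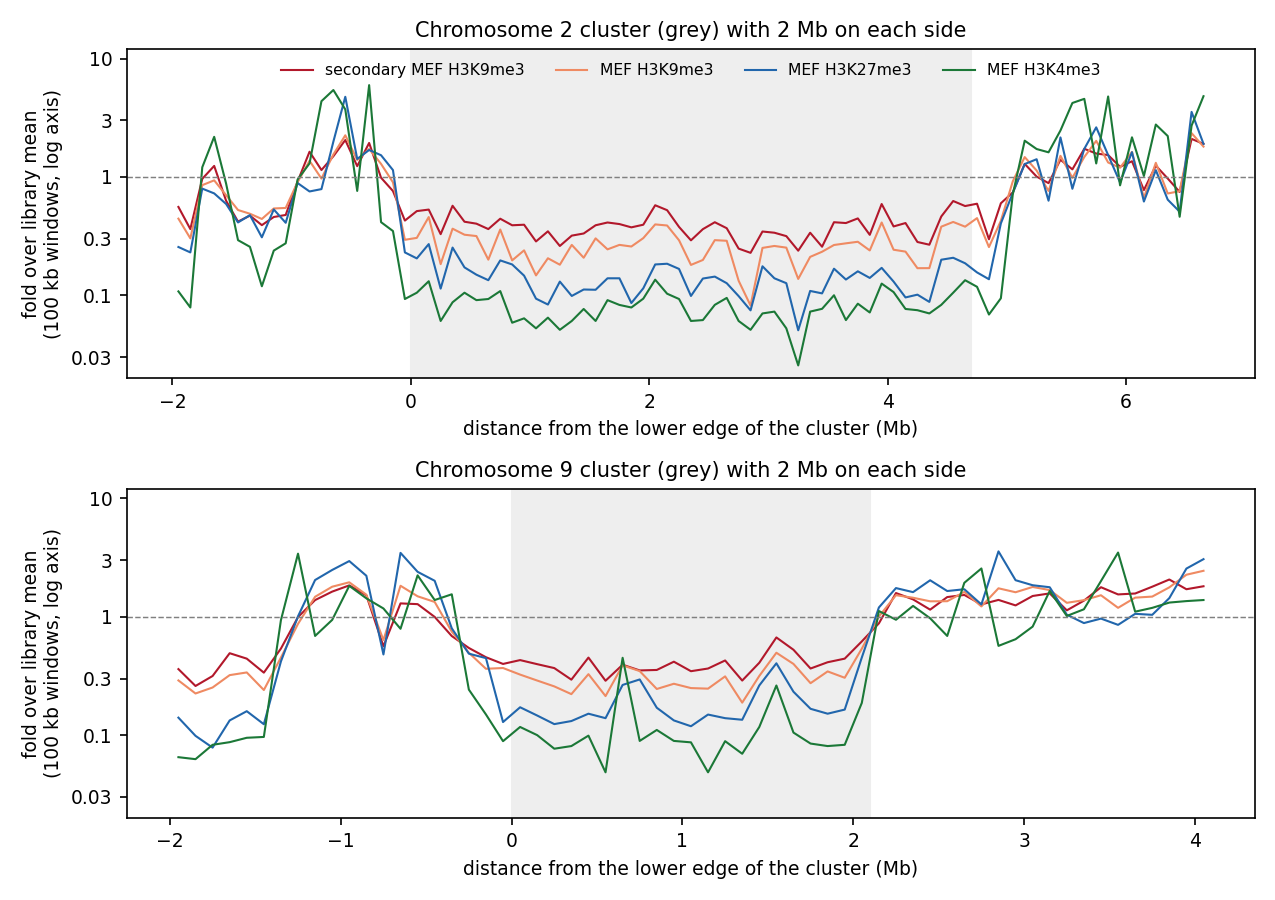
Fold over the library mean in 100 kb windows along the 2 clusters and 2 Mb on each side, against the distance from the lower cluster end in Mb, for the 4 libraries, on a log axis with the clusters shaded. No window inside a cluster reaches 1-fold, and the highest H3K4me3 window inside the chromosome 9 cluster is at 0.451-fold.

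The lowest windows of the chromosome 2 cluster lay within 500 kb of each other. Both H3K9me3 libraries were lowest from 88000001 to 88100000, where secondary MEF had 0.228-fold and MEF 0.0818-fold. H3K27me3 and H3K4me3 were lowest from 88400001 to 88500000, at 0.0506-fold and 0.0255-fold. The highest windows differed by library. Secondary MEF H3K9me3 peaked from 89700001 (0.626-fold), MEF H3K9me3 and H3K27me3 from 85300001 (0.458-fold and 0.271-fold) and H3K4me3 from 87200001 (0.135-fold). On chromosome 9 MEF H3K9me3 and H3K27me3 were highest in the last window, from 39800001 to 39900000, at 0.538-fold and 0.453-fold. Secondary MEF H3K9me3 was highest there from 39300001 (0.669-fold) and H3K4me3 from 38400001 (0.451-fold).

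The chromosome 9 cluster stood above the chromosome 2 cluster in every library, by more for H3K27me3 and H3K4me3 than for H3K9me3. Its level over that of chromosome 2 was 1.06 (1.01 to 1.11) for secondary MEF H3K9me3 and 1.18 (1.12 to 1.24) for MEF H3K9me3. For H3K27me3 it was 1.39 (1.30 to 1.48), at 0.196-fold on chromosome 9 and 0.141-fold on chromosome 2. For H3K4me3 it was 1.45 (1.35 to 1.56), at 0.118-fold and 0.0815-fold, and 1.29 (1.20 to 1.40) without the single called bin. The H3K4me3 ratio to bins of like total reads was 1.005 (0.949 to 1.06) on chromosome 9 and 0.871 on chromosome 2, and that of H3K27me3 was 0.842 and 0.754. The H3K4me3 ratio of chromosome 9 includes the called bin, which held 134 of the 1204 H3K4me3 reads of that cluster. Without that bin it was not computed for chromosome 9 alone, and over both clusters it went from 0.919 to 0.890.

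In windows of 1 Mb the parts of the clusters covered were among the lower windows of the autosomes in every library. The order of the libraries by rank was not the same in every window. Whole windows ended at 89200000 on chromosome 2 and at 39800000 on chromosome 9, so the rest of each cluster was not ranked. Of 2353 other autosomal windows, 0.807% to 3.23% were lower than the 4 windows of chromosome 2 for MEF H3K9me3, and 2.80% and 5.01% were lower than the 2 windows of chromosome 9. For H3K27me3 these shares were 0.935% to 3.19%, and 2.29% and 3.95%. For H3K4me3 they were 0.807% to 2.08%, and 8.46% and 4.25%. For secondary MEF H3K9me3 they were 1.91% to 10.2%, and 3.44% and 9.31%.

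Only 1 of the 4 cluster ends coincided with a clear change of level. At the upper end of chromosome 9 the last 100 kb inside stood at 0.620-fold, 0.538-fold, 0.453-fold and 0.187-fold in the order of libraries used above, and the first 100 kb outside at 0.880-fold, 1.01-fold, 1.20-fold and 1.12-fold. The nearest called bin outside lay 40 kb away for secondary MEF H3K9me3, H3K27me3 and H3K4me3 and 80 kb away for MEF H3K9me3. At the lower end of chromosome 9 the first 100 kb outside were as low as inside, for H3K4me3 0.117-fold inside and 0.0889-fold outside. Called bins began there between 380 and 495 kb away.

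On chromosome 2 the low level also ran past the interval. At the lower end the first 100 kb inside had 0.205-fold H3K27me3 and the first 100 kb outside 0.230-fold, while the next 100 kb outside had 1.14-fold. The nearest called bin outside lay 145 kb away for H3K27me3, 200 kb for secondary MEF H3K9me3, 260 kb for MEF H3K9me3 and 330 kb for H3K4me3. At the upper end the level stayed low in the bins that held a read. H3K27me3 was at 0.186-fold in the last 100 kb inside and at 0.156-fold and 0.137-fold in the first and second 100 kb outside. Bins with a read were few there, at 12 and 10 in these outside steps and 3 in the next 100 kb, against 19 in the last 100 kb inside. Called bins began 375 to 520 kb beyond that end. The part of the flanks farthest below the chromosome 9 cluster, from 2000 to 1400 kb away, was also low and held no called bin. In steps of 100 kb, secondary MEF H3K9me3 ran there between 0.260-fold and 0.492-fold and MEF H3K9me3 between 0.225-fold and 0.339-fold. H3K27me3 ran between 0.0784-fold and 0.159-fold and H3K4me3 between 0.0626-fold and 0.0965-fold.

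The only called bin, chr9:38465001-38470000, stood out for H3K4me3. It held 134 H3K4me3 reads, or 5.42-fold (4.54 to 6.41), at 127 distinct positions, 74 on the plus and 60 on the minus strand. Secondary MEF H3K9me3 had 7 reads there (0.434-fold), MEF H3K9me3 14 (0.777-fold) and H3K27me3 18 (0.911-fold). In pieces of 500 bp, 128 of the 134 reads (95.5%) fell in 3 of the 10 pieces, and the piece with the most, 69 reads, was the last, from 38469501 to 38470000. The signal crossed the bin's end, with 33 reads in the following piece, and the next bin, from 38470001 to 38475000, held 39 H3K4me3 reads (1.58-fold). In that next bin secondary MEF H3K9me3 had 17 reads (1.05-fold).

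**Figure D3:**
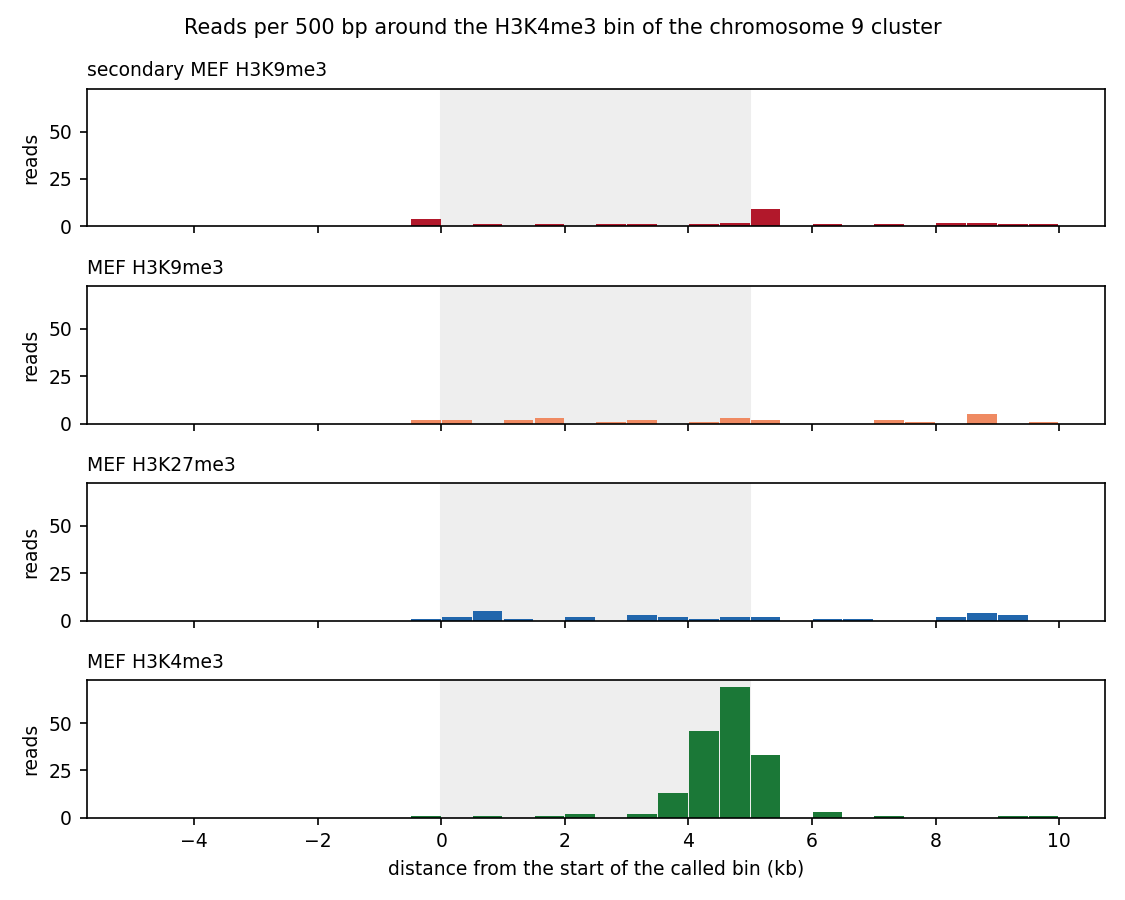
Reads in 500 bp pieces around the called bin, against the distance from its start in kb, for the 4 libraries. H3K4me3 rises to 69 reads in 1 piece at the end of the bin, and the other libraries stay at 9 reads or fewer in every piece.

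This bin set several H3K4me3 values of the chromosome 9 cluster. The variance of reads among bins over their mean, which is 1 where reads fall at random at the same rate in every bin, was 18.4 for H3K4me3 on chromosome 9 and 1.56 on chromosome 2. Over both clusters it was 2.98, 2.98, 2.60 and 8.28 in the same order of libraries, and 2.69 for H3K4me3 without this bin. Bins of like total reads had 2.71, 3.02, 3.80 and 3.33. The H3K27me3 value was thus lower in the clusters than in bins of like total reads.

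A narrower bin width found few more places. In bins of 1 kb, H3K4me3 was called in 3 of 5297 cluster bins, where 3.09% of the genome's 1 kb bins were called. Beside 115 reads from 38469001 (21.4-fold) and 33 from 38470001 (6.14-fold), this added 29 reads from 39354001 (5.39-fold), all on chromosome 9. Secondary MEF H3K9me3 was called in 1 bin, chr2:89768001-89769000, with 16 reads (4.56-fold), where 1.28% of the genome's were called. MEF H3K9me3 and H3K27me3 had none, where 1.65% and 3.72% were called.

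A second place on chromosome 9 had similar folds over the library mean in all 4 libraries at 5 kb, but not at 1 kb. It holds the 1 kb bin from 39354001 named above, called for H3K4me3 alone at 5.39-fold. Secondary MEF H3K9me3, MEF H3K9me3 and H3K27me3 were at 2.00-fold, 2.56-fold and 2.33-fold in that 1 kb bin. The bin chr9:39350001-39355000 was the highest of its cluster for secondary MEF H3K9me3 (27 reads, 1.67-fold), MEF H3K9me3 (30 reads, 1.67-fold) and H3K27me3 (32 reads, 1.62-fold), and the second highest for H3K4me3 (44 reads, 1.78-fold). It was 1 of only 2 cluster bins above 1-fold for H3K27me3. The other, from 39885001 to 39890000, had 20 H3K27me3 reads (1.01-fold) and 3 H3K4me3 reads (0.121-fold). The second highest bins of the H3K9me3 libraries were elsewhere on chromosome 9, from 39285001 in secondary MEF (25 reads, 1.55-fold) and from 39695001 in MEF (24 reads, 1.33-fold).

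On chromosome 2 the highest bin for secondary MEF H3K9me3 equalled that of chromosome 9, while those of the other libraries held fewer reads than their chromosome 9 counterparts. With so few reads in a bin, the counting intervals of these bins are wide (0.387 to 1.19 for the highest H3K27me3 bin of chromosome 2). Secondary MEF H3K9me3 was highest from 89765001 (27 reads, 1.67-fold) and 85310001 (24 reads, 1.49-fold). MEF H3K9me3 was highest from 87280001 and 87305001, with 23 reads in each (1.28-fold). H3K27me3 reached 14 reads (0.708-fold) in the bins from 85525001 and 89770001. H3K4me3 reached 13 reads (0.525-fold) from 85820001 and 10 reads (0.404-fold) from 87290001, so no H3K4me3 bin of the chromosome 2 cluster exceeded 0.525-fold.

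The H3K9me3 libraries ask whether the clusters carry the mark alike in both kinds of fibroblast. The share of library reads in the clusters was 1.42 times as high in secondary MEF as in MEF (1.37 to 1.46), at 1.47 (1.42 to 1.53) on chromosome 2 and 1.31 (1.24 to 1.39) on chromosome 9. In the flanks the ratio was 0.975 (0.960 to 0.991), between 0.956 and 1.01 on the 4 sides, and over all autosomes it was 1.01. Secondary MEF was the higher in 73.0% of cluster bins, 48.7% of flank bins and 51.4% of autosomal bins. The level in the clusters was below the library mean in both libraries, so the ratio compares 2 low levels.

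The ratio was above 1 in all 68 windows of 100 kb, between 1.01 and 2.79 with a median of 1.44. The counting interval lay above 1 in 47 of them and below 1 in none. Among other autosomal windows 53.4% were above 1. Among the 6464 with total reads in the clusters' range 78.0% were, with a median of 1.21 and quartiles of 1.02 and 1.40. These windows were chosen by that range alone and were not weighted to the clusters' total reads. Of these, 21.3% reached the clusters' median or more, and 18.1% did without chromosome 12, whose share of reads was raised throughout in the secondary MEF library. The highest cluster window was chr2:88000001-88100000, where 70 secondary MEF reads against 28 MEF reads gave 2.79 (1.78 to 4.49). The lowest were on chromosome 9 from 38400001 and 38500001, both at 1.01, and the first of them holds the H3K4me3 bin.

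**Figure D4:**
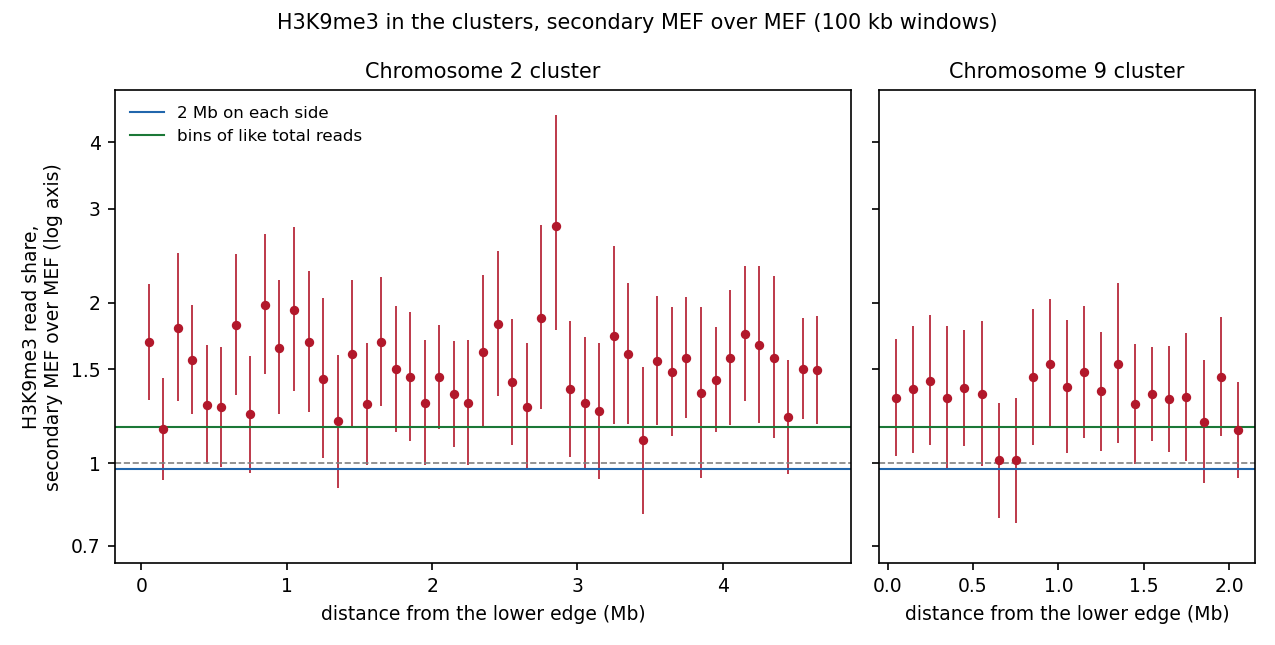
Ratio of the share of H3K9me3 reads, secondary MEF over MEF, in 100 kb windows along the 2 clusters (points, with 95% counting intervals), on a log axis against the distance from the lower cluster end in Mb. All 68 windows are above the dashed line at 1, while the solid lines of the flanks and of bins of like total reads are at 0.975 and 1.17.

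A ratio above 1 also went with a low number of reads elsewhere in the genome. Bins weighted to the clusters' total reads had 1.17, and 1.15 without chromosome 12. Bins weighted to the clusters' H3K27me3 and H3K4me3 reads alone, which leaves both H3K9me3 libraries out of the match, had 1.21, and 1.18 without chromosome 12. The cluster ratio lay above each of these by more than its counting interval. It was not out of the autosomal range, since the 1 Mb windows of chromosome 2, at 1.43 to 1.49, were exceeded by 69 to 106 of 2353 other windows, or by 18 to 40 of 2239 without chromosome 12. Those of chromosome 9, at 1.30 and 1.36, were exceeded by 271 and 187, or by 168 and 103 without chromosome 12.

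Tandem gene families hold sequence present more than once, and reads with 2 locations were listed apart at both. Their positions made up 24.1%, 26.3%, 26.3% and 27.9% of all positions in the clusters in the order of libraries used above. In the flanks the shares were 5.44%, 5.10%, 3.51% and 2.66%, and over the autosomes 6.36%, 6.20%, 5.04% and 4.29%. The chromosome 2 cluster, with 26.2% to 33.3%, exceeded the chromosome 9 cluster, with 17.8% to 21.1%, in every library. Per Mb, these positions were 1.82, 1.49, 1.05 and 0.791 times as frequent in the clusters as over the autosomes, so they followed the same order of libraries as the reads with a single location.

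**Figure D5:**
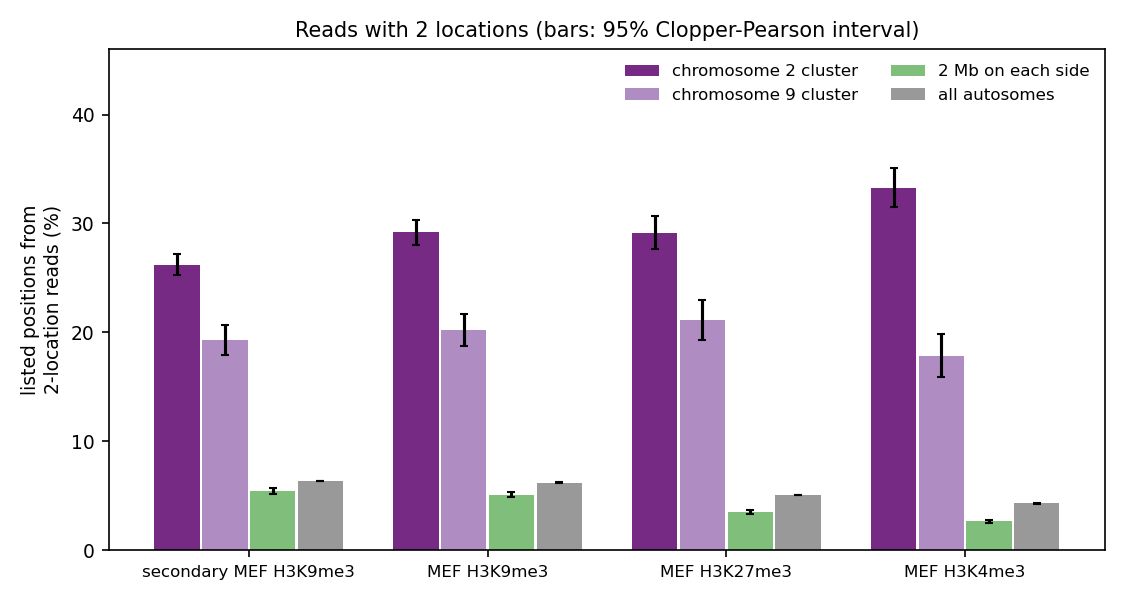
Positions of reads with 2 locations as a percentage of all listed positions, in each cluster, the flanks and the autosomes, for the 4 libraries, with 95% Clopper-Pearson intervals. The chromosome 2 cluster stands at 26.2% to 33.3%, the chromosome 9 cluster at 17.8% to 21.1%, the flanks at 2.66% to 5.44% and the autosomes at 4.29% to 6.36%.

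These positions gave a secondary MEF over MEF ratio of H3K9me3 of 1.26 (1.19 to 1.33) in the clusters, against 1.04 (0.974 to 1.12) in the flanks and 1.03 over the autosomes. The ratio was 1.27 on chromosome 2 and 1.24 on chromosome 9. Each such read is counted at both of its locations, so the intervals are too narrow where both lie in a cluster.

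Across the 68 windows the libraries rose and fell together. Pearson's r was 0.891 between the H3K9me3 libraries (Spearman 0.867) and 0.811 between MEF H3K9me3 and H3K27me3 (Spearman 0.789). Between secondary MEF H3K9me3 and H3K27me3 it was 0.715. Between H3K27me3 and H3K4me3 it was 0.625, and 0.793 without the window that holds the called bin. The weakest pairs were H3K4me3 with secondary MEF H3K9me3, at 0.466 (Spearman 0.745), and H3K4me3 with MEF H3K9me3, at 0.593 (Spearman 0.772). Without that window Pearson's r was 0.774 and 0.785 for these pairs. These values are descriptions, since the libraries were counted over the same windows and the amount of alignable sequence in each window was not measured.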

How the data were processed

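The deposited values are other than a level: signed positions of aligned reads, negative on the minus strand. Bowtie, whose version is not given, was run by the authors against mm8 with seeds of 36 bases, up to 2 mismatches in the seed and up to 2 locations reported, per the file headers. Reads with more than 2 locations were left out, and removal of repeated reads was not stated. Per the labels' protocols, chromatin was sonicated to a mean of 500 bp, amplified over 18 PCR cycles and cut from a gel at 150 to 350 bp.

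Single-location reads were moved 75 bp to the 3' side, with a length of 36 bases assumed, and each autosome, X and Y was divided into 5 kb bins in which they were counted. Of the reads, 97.8% (secondary MEF H3K9me3), 98.0% (MEF H3K9me3), 93.8% (H3K27me3) and 91.4% (H3K4me3) were at distinct positions. Calls were adjusted over all bins. Folds have Poisson intervals, and ratios and shares have Clopper-Pearson ones. Bins of like total reads were other autosomal bins weighted by the clusters' distribution of summed reads. The limit that a count of 0 allows is 3 counts of the total. Named bins were the 2 highest per cluster and library, every bin called for H3K4me3 and the highest and lowest 100 kb windows. Other named positions, among them the 1 kb bins, were chosen after their values were seen. The intervals, lists and rules were chosen with earlier results of these data known.

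RefSeq names, gene order and promoter sequences are from GRCm38.p6, with runs of receptor genes joined over gaps of up to 500 kb. Python 3.11.15, numpy 2.4.6, scipy 1.17.1 and pandas 2.3.3 were used. Input libraries were not used here.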

Additional observations from a re-analysis of the deposited data

Results flagged for a closer look

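Positions of reads with 2 locations, which lie outside the main counts, were present in the clusters in every library. They numbered 2686 in secondary MEF H3K9me3, 2375 in MEF H3K9me3, 1472 in MEF H3K27me3 and 1179 in MEF H3K4me3. They are named because the main counts leave them out. No control library was used here, so only their shares against the flanks and autosomes, given above, compare the clusters with other places.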

How the results depend on the processing

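Of 125 alternative values 54 moved. Counts of called bins were judged by a set change in the count, and the other values by the spread or interval of the main one. No ratio whose interval excluded 1 crossed to the other side of 1, but the MEF H3K9me3 ratio to like bins, at 0.992, became 1.01 with at least 20 reads, and the order of H3K4me3 and H3K27me3 turned over bins called in no library. Values are given for secondary MEF H3K9me3, MEF H3K9me3, H3K27me3 and H3K4me3 in that order. The cause of each move was not tested, except that a changed reference or set of bins changes the value by construction. The fold in the clusters was 0.444, 0.318, 0.181 and 0.109 with reads of 2 locations at a weight of 0.5, and 0.654, 0.483, 0.275 and 0.162 in bins with at least 20 reads in total. It was 0.379, 0.269, 0.152 and 0.0891 over the autosomal mean, 0.372, 0.222, 0.152 and 0.0808 as a median over bins, and 0.521, 0.374, 0.257 and 0.268 over autosomal bins called in no library. For H3K4me3 it was 0.1002 with 1 read per position and 0.0889 without the only called bin. In 1 kb bins the calls were 1 for secondary MEF H3K9me3 and 3 for H3K4me3.

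The ratio to the flanks was 0.399, 0.280, 0.143 and 0.0744 with reads of 2 locations, 0.524, 0.375, 0.190 and 0.0964 with at least 20 reads, 0.341, 0.229, 0.104 and 0.0562 with 1 Mb on each side, and 0.489, 0.342, 0.222 and 0.213 against flank bins called in no library. For H3K4me3 it was 0.0677 with 1 read per position and 0.0605 without the called bin. Matched on the reads of the 3 other libraries, the ratio to like bins was 1.14, 0.885, 0.626 and 0.720. It was 1.23 for secondary MEF H3K9me3 with at least 20 reads, and 0.874 for H3K4me3 when matched on the sum of folds. The H3K9me3 ratio was 1.35 with at least 20 reads. The variance over the mean was 6.17, 7.57, 7.87 and 15.2 in 50 kb windows, and 2.69 for H3K4me3 without the called bin.

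Leaving out the called bin and the reference of bins called in no library were chosen after seeing the data. No paired analysis was possible because each group holds 1 library. At a mean of 2.30 to 6.39 reads per cluster bin, single bins below the library mean are ranked with little precision.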
